A study of Mus musculus with 6 samples.

Results

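The Myc network is a set of transcription factors that share Max as a partner, and 10 of its genes were followed here in embryonic mouse hearts with a conditional deletion of Casz1, a zinc finger transcription factor. The genes were chosen by name as Myc, Mycn and Mycl, Max, and the antagonists Mxd1, Mxd3, Mxd4, Mxi1, Mnt and Mga. All 10 were found, each as a single entry, among the 23290 entries of the deposited table, and all 10 were among the 15387 entries that the authors tested.

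The mutant group held 3 hearts at E10.5 with genotype Nkx2-5Cre/+,Casz1f/f, which means Cre recombinase at 1 Nkx2-5 allele and floxed Casz1 alleles on both chromosomes. The control group held 3 hearts at E10.5 with genotype Nkx2-5+/+,Casz1f/+, which means no Cre and 1 floxed Casz1 allele. The design text describes the hearts as biological replicates. All embryos were of C57BL/6 background. By genotype every heart carried at least 1 floxed Casz1 allele, and the groups also differed at Nkx2-5. Cre at Nkx2-5 acts in cells that have expressed that gene, so other cells of a mutant heart keep Casz1.

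Expression was given as FPKM, a fragment count scaled to transcript length and library size, with 1 pooled value per genotype. Values of single hearts are not used here, so the spread between hearts and the depth per heart are unknown. FPKM values, fold changes, p and q come from the authors' deposited table throughout, with q under 0.05 as the threshold, and each standard error (SE) was worked out from the fold change and its test statistic. Casz1, the targeted gene, read 4.68 FPKM in mutant hearts and 6.61 FPKM in control hearts (log2 -0.50 with SE 0.306 and q = 1.00 in the authors' deposited table). Transcripts without the deleted part may still count towards that FPKM, which was not tested. Nkx2-5, at which the groups also differed by genotype, read 82.9 FPKM in mutant hearts and 143 FPKM in control hearts. Its log2 fold change was -0.79 with SE 0.295 (unadjusted p = 0.00755 and q = 0.536 in the authors' deposited table). The part of this difference in the values of other genes was not tested. Cardiac identity was plain in both groups: the light chain genes Myl7 and Myl2 read 7496 and 3942 FPKM in mutant hearts, and 5080 and 5549 FPKM in control hearts.

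Myc, Mycn and Mycl proteins pair with Max, bind the E-box CACGTG and drive genes of growth and ribosome production. The Mxd proteins, Mxi1, Mnt and Mga also pair with Max at such sites and bring in repressor complexes, so the balance of both arms sets the output of the network. In the midgestation mouse heart Mycn is known for its part in the growth of the ventricular wall, and embryos without it have a thin myocardium.

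Promoter letters are shown for the genes on which the results turn. Mycl had the largest difference between genotypes and Mycn the highest FPKM in control hearts, so the 250 bases before a RefSeq start of each (GRCm38.p6, the assembly named mm10 in the processing notes) are printed 5′ to 3′ on the strand of the gene. Mycl is at chr4:122995681-122995930 on the plus strand and Mycn at chr12:12941837-12942086 on the minus strand. Capitals mark CACGCG, an E-box variant, and the E2F-type letters TTTGGCGC and TTTCGCGC, each searched on both strands. The last capital run of Mycn is a second TTTGGCGC, and its first run holds TTTGGCGC overlapped by the reverse complement of TTTCGCGC.
Mycl: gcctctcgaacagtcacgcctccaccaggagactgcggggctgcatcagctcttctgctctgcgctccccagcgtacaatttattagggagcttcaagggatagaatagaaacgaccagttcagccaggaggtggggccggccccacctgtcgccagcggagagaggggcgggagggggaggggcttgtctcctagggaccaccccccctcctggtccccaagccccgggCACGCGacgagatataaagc
Mycn: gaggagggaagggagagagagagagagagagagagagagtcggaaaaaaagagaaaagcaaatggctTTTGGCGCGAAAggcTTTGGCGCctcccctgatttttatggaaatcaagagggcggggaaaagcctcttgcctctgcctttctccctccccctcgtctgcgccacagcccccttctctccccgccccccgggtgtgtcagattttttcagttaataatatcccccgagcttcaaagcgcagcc

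The Mycl window belongs to a start 168 bases before the first base of the deposited Mycl entry. TTTGGCGC lies in 0.514% of all 32851 mouse promoter windows in the same RefSeq table, and TTTCGCGC in 0.323%, counting both strands over 300 bases (250 before and 50 after each start). Of the 9 network genes with a window, Mycn alone held either set of letters. Myc had no window and was not searched. CACGCG or its reverse complement lay in 9.27% of all windows and in those of 2 network genes, Mycl and Mga. The network's own site, the palindrome CACGTG, lay in 7.15% of all windows and in those of 3 network genes, Max, Mxd4 and Mnt. Stretches of 30 bases around these sites are shown in the orientation of each gene because they place network letters at network genes, with the E-box in capitals. They are chr12:76962234-76962263 (minus strand) for Max, where the E-box spans the start, chr5:34187912-34187941 (minus strand) for Mxd4, chr11:74830789-74830818 (plus strand) for Mnt and chr2:119897195-119897224 (plus strand) for Mga, which has the variant on its reverse strand.
Max: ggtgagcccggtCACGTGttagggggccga
Mxd4: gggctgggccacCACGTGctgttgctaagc
Mnt: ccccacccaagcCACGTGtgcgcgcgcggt
Mga: agctggtaggagCGCGTGcgcagtgacgtg
These matches describe letters only, and binding was not measured.

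None of the 10 network genes passed q under 0.05 by the authors' deposited table, against 0.422% of all tested entries (0.305% higher and 0.117% lower in mutant hearts). At an unadjusted p under 0.05 there was 1, Mycl, against 3.17% of tested entries. The log2 fold changes (mutant over control) of the 10 genes ran from -0.34 for Mycn to 1.34 for Mycl with a median of -0.07, and the median over all tested entries was -0.02. Values lay below 0 for 8 of 10 genes, and 54.7% of tested entries did so. How far single hearts of a group differed cannot be read from these values.

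**Figure D1:**
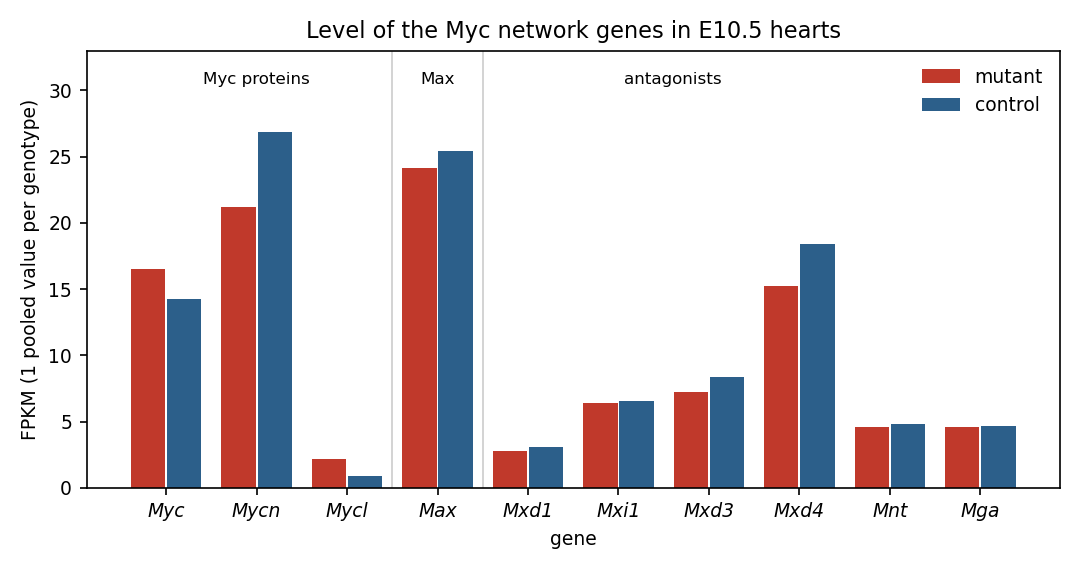
FPKM of each network gene in mutant (red, left) and control (blue, right) hearts, 1 pooled value per genotype and therefore without error bars. Mycn and Max stand highest in both genotypes (21.2 and 24.2 FPKM in mutant hearts, 26.9 and 25.4 FPKM in control hearts), and Mycl stands lowest.

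Mycn was the most abundant Myc gene in both genotypes. Mycn, on chromosome 12 from 12936093 to 12941836, read 21.2 FPKM in mutant hearts and 26.9 FPKM in control hearts. The level was thus 1.27-fold lower in the mutants (log2 -0.34, SE 0.281, 95% interval -0.89 to 0.21), and the difference did not pass (unadjusted p = 0.222, q = 1.00 in the authors' deposited table). A fall to 0.538 of the control level and a gain to 1.15 of it both lie within that interval. The authors' test statistics were narrowly spread over all entries with at least 1 FPKM in either genotype, with a robust SD of 0.360. When the statistics were centred and divided by that SD, Mycn passed with lower expression in mutants (q = 0.0181). Of the 12150 entries so treated, 7.48% passed in either direction. Casz1 (q = 0.000337) and Nkx2-5 (q = 2.73e-11) were among them, both lower in mutants. This scale is set by how genes differ, since the differences between hearts are unknown.

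Mycn was lower beside other small differences in the same hearts. Cardiomyocyte markers had 0 of 11 tested members called and a median log2 fold change of -0.20, with 8 of 11 below 0. Their summed level was 21834 FPKM in mutant hearts and 21512 FPKM in control hearts. The sum was higher in mutants only through Myl7, at 7496 FPKM in mutant hearts and 5080 FPKM in control hearts. Endothelial and endocardial markers had 0 of 8 called and a median of -0.17, all 8 below 0, with sums of 187 FPKM in mutant hearts and 215 FPKM in control hearts. On the rescaled statistic 1 of these passed, the VEGF receptor gene Kdr, lower in mutants (q = 0.00123), and 0 cardiomyocyte markers did. No marker in either list was at 0. Their part in the Mycn value was not tested, and in whole hearts fewer cells of a type and less RNA per cell cannot be told apart.

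Myc, the founding member of the family, lies on chromosome 15 from 61985341 to 61990361. It read 16.6 FPKM in mutant hearts and 14.3 FPKM in control hearts (log2 0.21, SE 0.361, 95% interval -0.49 to 0.92, q = 1.00 in the authors' deposited table). Myc thus differed in the opposite direction to Mycn, and neither difference passed. Mycn stood at 1.28 times the FPKM of Myc in mutant hearts and at 1.88 times in control hearts. The difference between these ratios was not tested.

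Mycl, the least abundant Myc gene, showed the largest difference of the network. This gene, on chromosome 4 from 122996099 to 123002480, read 2.17 FPKM in mutant hearts and 0.858 FPKM in control hearts. That was a 2.53-fold higher level (log2 1.34, SE 0.440, 95% interval 0.48 to 2.20). Its unadjusted p was 0.00234 and its q 0.254 in the authors' deposited table. Its p ranked 141 among the 15387 tested entries, of which 65 were called. On the rescaled statistic Mycl passed (q = 1.39e-15). The level is low, and with 1 FPKM added to both genotypes the log2 fold change was 0.77. Mycl lies on the same chromosome as Casz1, 25.8 Mb away, and no gene in the GENCODE annotation overlaps it.

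Markers of foregut and pharyngeal epithelium were higher in mutant hearts, as the Mycl value was. In that list 7 of 10 tested members were called, all higher in mutant hearts, and the other three, Foxa2, Nkx2-1 and Sox2, had unadjusted p-values under 0.05 and log2 fold changes of 1.83, 2.62 and 1.95. The summed level of the list was 21.6 FPKM in mutant hearts and 4.16 FPKM in control hearts, and no marker was at 0 in either group. The junction genes Cldn6, at 7.27 FPKM in mutant and 1.5 FPKM in control hearts, and Epcam, at 4.42 FPKM in mutant and 0.971 FPKM in control hearts, were the highest of them. Neural crest and neuron markers had 0 of 7 tested members called and summed to 21.9 FPKM in mutant hearts and 16.9 FPKM in control hearts, with a median log2 fold change of 0.43. Of these, 5 lay above 0 and 2 below. Tubb3 alone held most of the sum, at 17.3 FPKM in mutant hearts and 13.7 FPKM in control hearts. On the rescaled statistic 2 of the neural markers passed, Tubb3 (q = 0.0238) and Elavl4 (q = 0.0159), both higher in mutants. The part of either cell group in the Mycl value was not tested.

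Summed over the 3 Myc genes, the level was 39.9 FPKM in mutant hearts and 42.0 FPKM in control hearts (log2 -0.07). The make-up of this sum differed more than its size. Mycn gave 53.1% of it in mutant hearts and 64.0% in control hearts. Myc gave 41.5% in mutant hearts and 34.0% in control hearts, while Mycl gave 5.43% in mutant hearts and 2.04% in control hearts. The shares are values of pooled FPKM without a test.

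**Figure D2:**
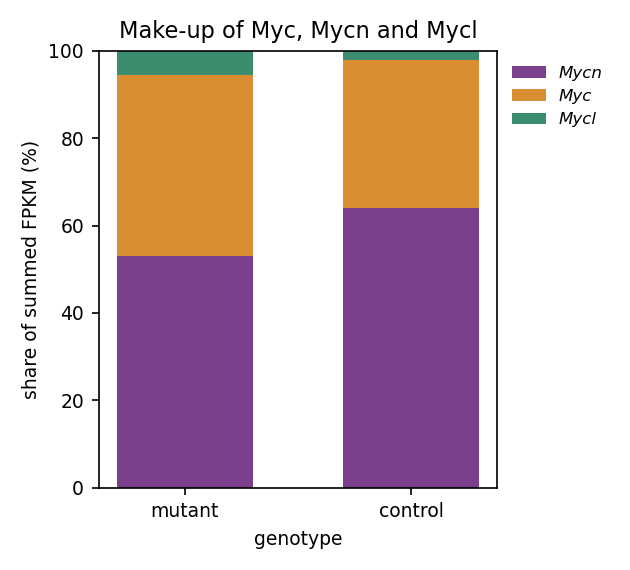
Share of the summed FPKM of Mycn, Myc and Mycl held by each gene, in percent, in mutant (left) and control (right) hearts. Mycn takes 53.1% of the mutant bar and 64.0% of the control bar.

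Max, the shared partner of the network proteins at E-boxes, was close to level between genotypes. On chromosome 12 from 76937269 to 76962248, it read 24.2 FPKM in mutant hearts and 25.4 FPKM in control hearts (log2 -0.07, SE 0.310, 95% interval -0.68 to 0.53, q = 1.00 in the authors' deposited table). The summed Myc genes stood at 1.65 times Max in mutant hearts and at 1.65 times in control hearts, on the FPKM scale. The 6 antagonists stood at 1.69 times Max in mutant hearts and at 1.81 times in control hearts.

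The antagonists all read lower in the mutant hearts, by amounts that did not pass. Mxd4, an Mxd protein linked to cell differentiation, was the most abundant of them and lies on chromosome 5 from 34176580 to 34187710. It read 15.2 FPKM in mutant hearts and 18.4 FPKM in control hearts (log2 -0.27, SE 0.322, 95% interval -0.90 to 0.36, q = 1.00 in the authors' deposited table). An annotated antisense gene overlaps 1001 bases of Mxd4, and Max, Mxd1 and Mxi1 also overlap other annotated genes. The labels do not state whether counting used strand, so reads of overlapping genes may not be separated.

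Mxd3, which in mouse is known from proliferating progenitors, was measured with little precision. It read 7.24 FPKM in mutant hearts and 8.37 FPKM in control hearts, but its SE was 2.18 and its 95% interval on the log2 scale ran from -4.48 to 4.06. Of all tested entries with a finite fold, 96.7% had a smaller SE. Mxd3 and Prelid1, a gene of mitochondrial lipid transfer on the opposite strand of chromosome 13, share the locus from 55322055 to 55329730 in the deposited table, and the annotated genes overlap by 105 bases at their ends. Prelid1 read 298 FPKM in mutant hearts and 285 FPKM in control hearts, which is 41.2 times Mxd3 in mutant hearts and 34.0 times in control hearts. The part of that overlap in the SE was not tested.

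Mxd1 and Mxi1, the other Mxd-type repressors, gave narrower intervals. Mxd1, on chromosome 6 from 86647045 to 86669159, read 2.77 FPKM in mutant hearts and 3.08 FPKM in control hearts (log2 -0.15, SE 0.332). Mxi1, on chromosome 19 from 53310506 to 53375810, read 6.38 FPKM in mutant hearts and 6.57 FPKM in control hearts (log2 -0.04, SE 0.303). Neither was called. Summed over Mxd1, Mxd3, Mxd4 and Mxi1 the level was 31.6 FPKM in mutant hearts and 36.4 FPKM in control hearts (log2 -0.20), a difference that comes mostly from Mxd4.

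Mnt and Mga, like Max and Mxi1, lay within 0.1 of 0 on the log2 scale. Mnt, the broadly expressed antagonist that opposes Myc in cycling cells, lies on chromosome 11 from 74830924 to 74845725 and read 4.62 FPKM in mutant hearts and 4.81 FPKM in control hearts (log2 -0.06, SE 0.306). Mga carries a T-box beside its Max-binding domain and is the DNA-binding core of a Polycomb complex. It lies on chromosome 2 from 119897228 to 119969581 and read 4.60 FPKM in mutant hearts and 4.68 FPKM in control hearts (log2 -0.03, SE 0.293). The 95% intervals allow Mnt levels of 0.634 to 1.46 times control and Mga levels of 0.660 to 1.46 times control, so differences within these bounds could not be seen.

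**Figure D3:**
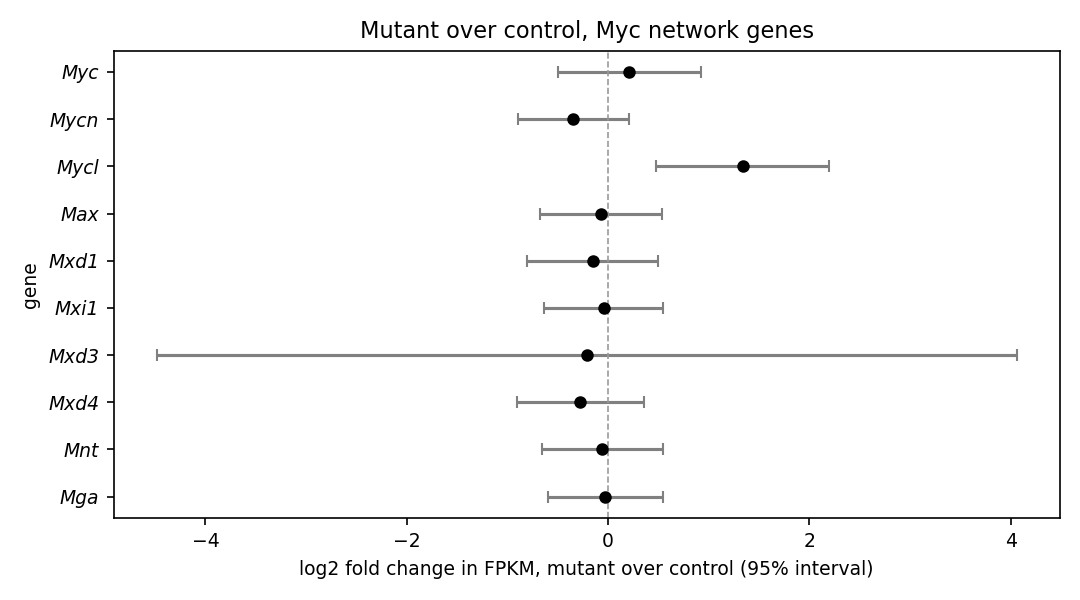
Log2 fold change in FPKM (mutant over control) of each network gene, with the 95% interval from the SE implied by the authors' test statistic. Only the Mycl interval (0.48 to 2.20) lies clear of 0, and the Mxd3 interval is the widest (-4.48 to 4.06).

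The order of levels was much alike in both genotypes. In mutant hearts it ran Max, Mycn, Myc, Mxd4, Mxd3, Mxi1, Mnt, Mga, Mxd1 and Mycl, and in control hearts Mycn stood above Max and Mxd4 above Myc. The highest gene stood 11.1 times above the lowest in mutant hearts and 31.3 times above it in control hearts. Mnt and Mga differed least, by 1.00 times in mutant hearts and 1.03 times in control hearts. With 1 pooled value per genotype, no neighbours in this order can be told apart by a spread between hearts. By mean FPKM, Max and Mycn stood at percentiles 79.2 and 78.7 of all tested entries, Mxd4 and Myc at 71.3 and 69.5, and Mycl at 26.0.

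The sum of the 6 antagonists was 40.8 FPKM in mutant hearts and 45.9 FPKM in control hearts (log2 -0.17). The Myc genes therefore stood at 0.978 of the antagonists in mutant hearts and at 0.915 in control hearts.

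**Figure D4:**
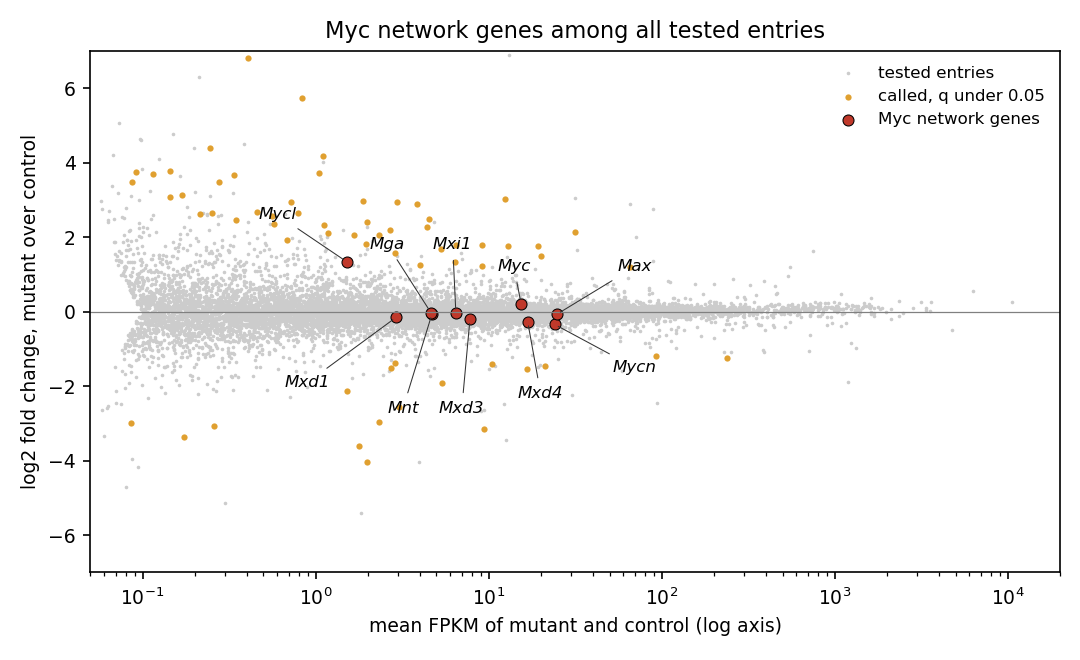
Log2 fold change (mutant over control) against mean FPKM on a log axis for tested entries (grey), entries called at q under 0.05 (orange) and the 10 network genes (red, labelled); 4 tested entries lie beyond the drawn range. Mycl (log2 1.34) lies apart from the other 9 network genes, which stay between -0.34 and 0.21.

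Other genes of the pathway were described in 8 lists with 104 tested genes, of which the authors' deposited table calls 0, and 0 reached an unadjusted p below 0.05. Among the Mlx arm, where Mlx stands in for Max, 0 of 3 were called and the median log2 fold change was -0.10. Mlx itself read 14.8 FPKM in mutant hearts and 15.8 FPKM in control hearts, and its glucose-sensing partner Mlxip read 5.32 FPKM in mutant hearts and 5.57 FPKM in control hearts.

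Cofactors of both arms had median log2 fold changes near 0. Of 12 Myc coactivators 0 were called and all 12 lay within 0.2 of 0 on the log2 scale, with a median of 0.01. Ruvbl2, an ATPase of the TIP60 and INO80 complexes, read 68.3 FPKM in mutant hearts and 66.5 FPKM in control hearts. Kat5, the TIP60 acetyltransferase, read 18.7 FPKM in mutant hearts and 20.03 FPKM in control hearts. Of 10 corepressor genes of the Mxd and Mnt proteins 0 were called (median 0.02). The deacetylase Hdac1 stood lowest among them at 41.5 FPKM in mutant hearts and 49.5 FPKM in control hearts (log2 -0.26, SE 0.279), while the histone-binding subunit Rbbp7 read 154 FPKM in mutant hearts and 155 FPKM in control hearts.

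Partners of Mga in its Polycomb complex gave 0 of 9 called and a median of 0.01, with E2f6 at 27.3 FPKM in mutant hearts and 29.7 FPKM in control hearts. Genes of Myc protein turnover gave 0 of 11 called and a median of -0.01. The kinase Aurka, known to stabilise the Mycn protein, read 50.4 FPKM in mutant hearts and 50.1 FPKM in control hearts. Usp28, a deubiquitinase that protects Myc from the ligase Fbxw7, read 25.5 FPKM in mutant hearts and 28.6 FPKM in control hearts (log2 -0.16, SE 0.282). These are mRNA values, and protein was not measured.

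Genes that Myc is known to induce were also uncalled. Of 23 ribosome biogenesis genes 0 were called, the median was 0.03 and all 23 lay within 0.2 of 0, with 19 above it. The nucleolar chaperone Npm1 read 573 FPKM in mutant hearts and 543 FPKM in control hearts, and the rRNA methyltransferase Fbl read 119 FPKM in mutant hearts and 113 FPKM in control hearts. Of 26 tested metabolism and growth genes 0 were called, with a median of 0.05. Lactate dehydrogenase Ldha read 1128 FPKM in mutant hearts and 1079 FPKM in control hearts.

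Cyclin D2 had the largest difference within that list, though its interval spans 0. Ccnd2, the D-type cyclin gene that Myc proteins induce at G1, read 60.4 FPKM in mutant hearts and 79.3 FPKM in control hearts (log2 -0.39, SE 0.327, 95% interval -1.03 to 0.25, q = 1.00 in the authors' deposited table). It had the lowest log2 fold change of the list, and on the rescaled statistic it passed with lower expression in mutants (q = 0.0212). That was 1 of the 26 tested genes of the list, against 7.48% of all entries so treated. Mycn stood at log2 -0.34, as did Btg2 of the Myc-repressed list below. A link between Ccnd2 and Mycn was not tested.

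Of 10 genes that Myc is known to repress 0 were called, and the median was -0.03 with values from -0.34 to 0.68. The growth arrest genes Gadd45a and Gadd45g read 11.4 and 30.4 FPKM in mutant hearts, and 8.89 and 25.3 FPKM in control hearts. Btg2, an antiproliferative gene, read 9.49 FPKM in mutant hearts and 12.01 FPKM in control hearts (log2 -0.34, SE 0.293) and passed on the rescaled statistic, lower in mutants (q = 0.0291). Proliferation markers gave 0 of 10 called and a median of -0.04, with Ube2c at 223 FPKM in mutant hearts and 228 FPKM in control hearts.

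**Figure D5:**
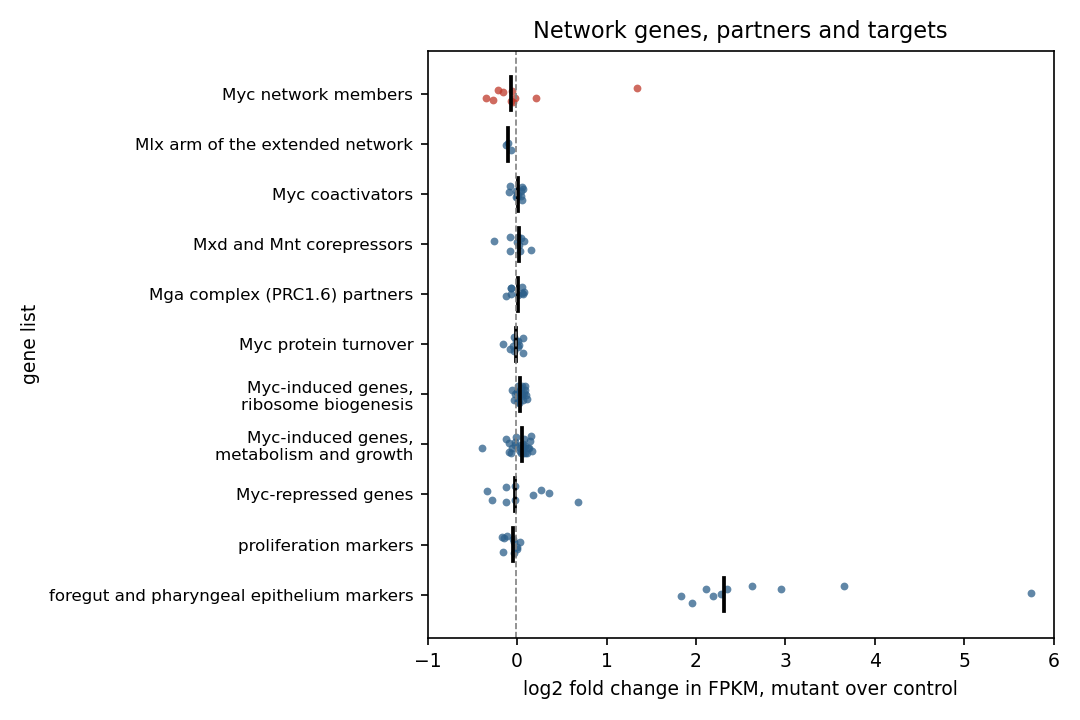
Log2 fold change (mutant over control) of every tested gene of each list (points), with the list median as a black bar and the median of all tested entries as a dashed line at -0.02. Mycl, at 1.34, is the network point nearest to the foregut and pharyngeal epithelium markers, whose median is 2.31.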

How the data were processed

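The deposited file is a Cuffdiff table of 2 genotypes. The submitters' processing notes name TopHat2 2.0.8, Bowtie2 2.1.0.0, Cufflinks 2.1.1, Cuffdiff and mm10. The FPKM columns were made by the authors with 1 number for each genotype, per the file headers. Deposited p-values and q-values accompany each tested entry, and 0 columns hold single samples. The test statistic, a score in the deposited table, has the sign opposite to the fold change and was turned round. The deposited log2 fold changes carry no pseudocount. No source used here gives the library scaling. Depth is unknown, so no counting interval is given.

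Entries were named from RefSeq identifiers (99.3% of 23290), and starts were moved to counting from 1. The SE is the log2 fold change divided by the test statistic, since each p equalled the two-sided normal tail within 2.82e-06. Intervals of 95% assume a normal distribution. The members and lists were chosen with earlier results of these data known. The text names all members and, per list, the 2 genes of highest FPKM and the 2 of largest test statistic, or a part of these, plus called markers. Foxa2, Nkx2-1, Sox2, Kdr, Elavl4, Tfap2a and Tfap2b were named after their values were seen. Alternatives were pseudocounts of 0.1 and 1 FPKM, scaling, filters, thresholds and the rescaled statistic. The adjustment step was tested on simulated data. Python 3.11.15, numpy 2.4.6, pandas 2.3.3, scipy 1.17.1 and matplotlib 3.10.9 were used.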

Additional observations from a re-analysis of the deposited data

How the results depend on the processing

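No paired analysis was possible because the table holds 1 pooled value per genotype, which also leaves no replicate to leave out. The count of called network genes, 0 at q under 0.05, stayed 0 at q under 0.1 and with adjustment over entries with at least 1 FPKM, and was 1 at an unadjusted p under 0.05 and 2 on the rescaled statistic. Over all genes 65 were called, against 487 at an unadjusted p under 0.05 and 909 on the rescaled statistic, where 51.8% were higher in mutants (72.3% of the 65). That statistic was applied to the lists after seeing the data. On it 1 metabolism and growth gene, 1 Myc-repressed gene, 1 endothelial marker and 2 neural markers passed, against 0 of each. Over all entries so treated 7.48% passed. Every network gene kept its direction under scaling, centring and the rescaled statistic. An equal pseudocount in both genotypes cannot change a direction, and the changed adjustment reused the same fold changes. For counts, medians and sums 62 of 68 alternative values stayed close to the main one (counts within 1.5 times, others within the implied SE). Some of these values could not move, such as a count from part of a list with 0 called. The tally is therefore no measure of stability. The median log2 fold change of the network was -0.07 as deposited. In a setting chosen after seeing the data it was also -0.07 without Mycl and Mxd3. These genes lie on opposite sides of the median, so leaving both out could not move it. The rescaled statistic uses the spread across genes, so its calls do not measure the spread between hearts.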

Other observations

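Other basic helix-loop-helix factors that bind E-boxes, a list added after the table had been seen, gave 0 of 13 tested genes called in the authors' deposited table, 0 at an unadjusted p below 0.05, and a median log2 fold change of -0.03. Usf2 and Usf1, broadly expressed factors that bind CACGTG, read 38.1 and 29.7 FPKM in mutant hearts, and 37.3 and 26.2 FPKM in control hearts. Srebf2, a regulator of sterol synthesis, read 37.6 FPKM in mutant hearts and 38.5 FPKM in control hearts. The circadian repressor Bhlhe41 had the lowest log2 fold change of the list and read 1.28 FPKM in mutant hearts and 1.69 FPKM in control hearts (log2 -0.41, SE 0.453).

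Other cell types of the heart were read from marker lists in the authors' deposited table. Of 7 epicardial markers 0 were called, with sums of 144 FPKM in mutant hearts and 151 FPKM in control hearts. Of 4 tested erythroid markers 0 were called, with sums of 305 FPKM in mutant hearts and 286 FPKM in control hearts. Of 6 tested macrophage markers 1 was called, the lysozyme gene Lyz2, lower at 1.91 FPKM in mutant hearts against 16.9 FPKM in control hearts. All 6 lay below 0, but Lyz2 alone had an unadjusted p under 0.05. C1qb, the next highest, read 1.58 FPKM in mutant hearts and 1.83 FPKM in control hearts.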
